A study of Homo sapiens with 15 samples.

Results

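Genes responding in 1 of 2 cell lines were followed here across PC3 and DU145, human prostate cancer cells: CALB1, TBXAS1, ELK3, NT5E, IL13RA2, CD68, RGS4 and DPYSL2, 8 of the 18377 genes measured. They had been picked from these same arrays because the change with a microRNA mimic looked different in the 2 lines. The values that chose them, mimic against scrambled mimic in each line and the difference between the lines, are therefore given as a description with no test, and so is every other contrast that holds the same mimic or scrambled arrays. Counts past limma's threshold are printed beside the share of all genes for scale only. DPYSL2 was lower with both mimics in both lines, and NT5E, ELK3 and CD68 had changes of some size in each. Against scrambled mimic, the description as genes of a single line therefore holds best for CALB1, TBXAS1, IL13RA2 and RGS4. For RGS4 and TBXAS1 it depends on that control. With miR-224 against untransfected cells, RGS4 stood at 0.15 in PC3 and 0.26 in DU145, and TBXAS1 at 0.38 and 0.19. With miR-452 against untransfected cells, RGS4 stood at 1.04 in PC3 and 0.28 in DU145, and TBXAS1 at -0.42 and 0.17. The question put to them was how the untransfected level of each gene in a line relates to its change in that line. Cells of each line had received 20 nM of a mimic of miR-224, a mimic of miR-452 or a scrambled mimic for 48 h, or were left untransfected. Each group held 2 arrays, apart from a single array for scrambled mimic in DU145, and replicates carry the letters a, b and c. The groups share the parental line and differ in the transfection, and both lines are established and grown from metastases. The scrambled mimic is taken as the control for transfection. Nothing in the labels says that replicates were separate cultures, so p-values measure the spread between arrays only, and precision is limited by how few arrays there are.

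MicroRNAs pair through their seed, bases 2 to 8, with messenger RNAs and lower their translation and stability, so that a transcript has to be present in a cell before it can be lowered there. A transfected mimic is a short double-stranded RNA that loads such a strand into the same machinery. The 8 genes belong to no common pathway. At the cell surface or in lysosomes act NT5E, the enzyme CD73 that makes adenosine from AMP outside the cell, IL13RA2, a receptor that binds interleukin 13 with high affinity and is often called a decoy, and CD68, a lysosomal membrane glycoprotein used as a macrophage marker. TBXAS1 makes thromboxane A2 from prostaglandin H2. RGS4 speeds GTP hydrolysis by G protein alpha subunits, and ELK3 is a ternary complex factor that binds DNA with SRF. CALB1 is the calcium buffer calbindin, and DPYSL2 is CRMP2, a tubulin-binding protein of axon growth that acts downstream of semaphorins.

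The mature sequences of the transfected microRNAs are shown first, 5′ to 3′, with the seed in capitals, because the seed sets which transcripts a mimic can pair with. They are those of RefSeq on GRCh38.p14, where both genes lie on the minus strand of chromosome X.
hsa-miR-224-5p: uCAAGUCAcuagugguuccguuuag
hsa-miR-224-3p: aAAAUGGUgcccuagugacuaca
hsa-miR-452-5p: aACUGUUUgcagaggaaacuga
hsa-miR-452-3p: cUCAUCUGcaaagaaguaagug
The 5p strands map to chrX:151958628-151958652 for miR-224 and chrX:151959678-151959699 for miR-452. No seed is shared among the 4 strands. The labels do not say which strand each mimic carried, and no target site in the 8 transcripts was searched here.

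Values are log2 levels as the authors deposited them, and the arrays of each line were normalized apart. PC3 arrays had medians of 6.94 to 7.05, and DU145 arrays of 6.51 to 6.67. The median gene was 0.41 higher in untransfected PC3 than in untransfected DU145 as deposited, and 83.5% of all genes were higher in PC3. After quantile normalization of all 15 arrays together that shift of the median gene was -0.01. A level is therefore given with its percentile among all genes on the same array, and a percentile gives a place on the array, not an abundance, since probes of different genes differ in brightness. Cell line and normalization cannot be told apart in the deposited differences. Epithelial keratins stood near the top in both lines, KRT8 at percentile 98.3 in PC3 and 99.8 in DU145. KRT18 was at 96.6 in PC3 and 99.1 in DU145, and KRT19 at 97.4 and 97.2. The other genes of the luminal epithelial list stood lower, most of all in PC3. EPCAM was at 60.2 in PC3 and 87.1 in DU145, and CDH1 at 40.8 in PC3 and 85.6 in DU145. CTNNA1, alpha-catenin, which is known to be lost in PC3, was at percentile 11.5 in PC3 and 96.4 in DU145.

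Untransfected cells split the 8 genes into those measured well above the low end of the array in both lines and those low in DU145. CALB1 read 9.24 and 9.10 in PC3, against 5.33 and 5.36 in DU145, a difference of 3.83 on the log2 scale or 14.2-fold. That placed it at percentile 80.4 in PC3 and 11.2 in DU145. TBXAS1 read 8.52 and 8.51 in PC3 against 6.04 and 5.96 in DU145, 5.70-fold, at percentile 69.5 in PC3 and 28.4 in DU145. IL13RA2 was low in both, 6.24 and 6.04 in PC3 at percentile 22.9, against 4.67 and 4.67 in DU145 at percentile 0.248. RGS4 read 6.94 and 7.0 in PC3 against 5.85 and 5.86 in DU145, at percentiles 40.0 in PC3 and 24.7 in DU145. These 4 genes were higher in PC3, as were 83.5% of all genes on the deposited scale. Their differences exceeded the shift of the median gene by 3.42, 2.10, 1.06 and 0.71 log2 for CALB1, TBXAS1, IL13RA2 and RGS4. Such differences against a low probe depend on the constant of the normalization: with 16 taken off they were 4.51 for CALB1 in place of 3.83, 2.86 for TBXAS1 in place of 2.51, 2.53 for IL13RA2 in place of 1.47 and 1.38 for RGS4 in place of 1.11. The folds are therefore those of the deposited scale. Among all genes, 470 (2.56%) were at least 2 log2 higher in PC3 as deposited, CALB1 and TBXAS1 among them.

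The other 4 genes were well expressed in both lines. NT5E averaged 9.05 in PC3 at percentile 78.7, against 9.84 in DU145 at percentile 94.3, and DPYSL2 averaged 10.13 in PC3 at percentile 92.0, against 10.59 in DU145 at percentile 97.8. Both were lower in PC3. ELK3 averaged 9.15 in PC3 and 8.79 in DU145, at percentile 80.2 in PC3 and 83.8 in DU145. CD68 averaged 9.84 in PC3 and 9.68 in DU145, at percentile 89.4 in PC3 and 93.1 in DU145. The small excess of ELK3 and CD68 in PC3 reversed with scaling: the differences were 0.36 and 0.16 as deposited, and -0.25 and -0.42 when all arrays were normalized together. CALB1 stood highest in the order of PC3-to-DU145 differences, followed by TBXAS1, IL13RA2, RGS4, ELK3, CD68, DPYSL2 and NT5E. The neighbouring differences of ELK3 and CD68 lay about as far apart as the IL13RA2 replicates of PC3.

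**Figure D1:**
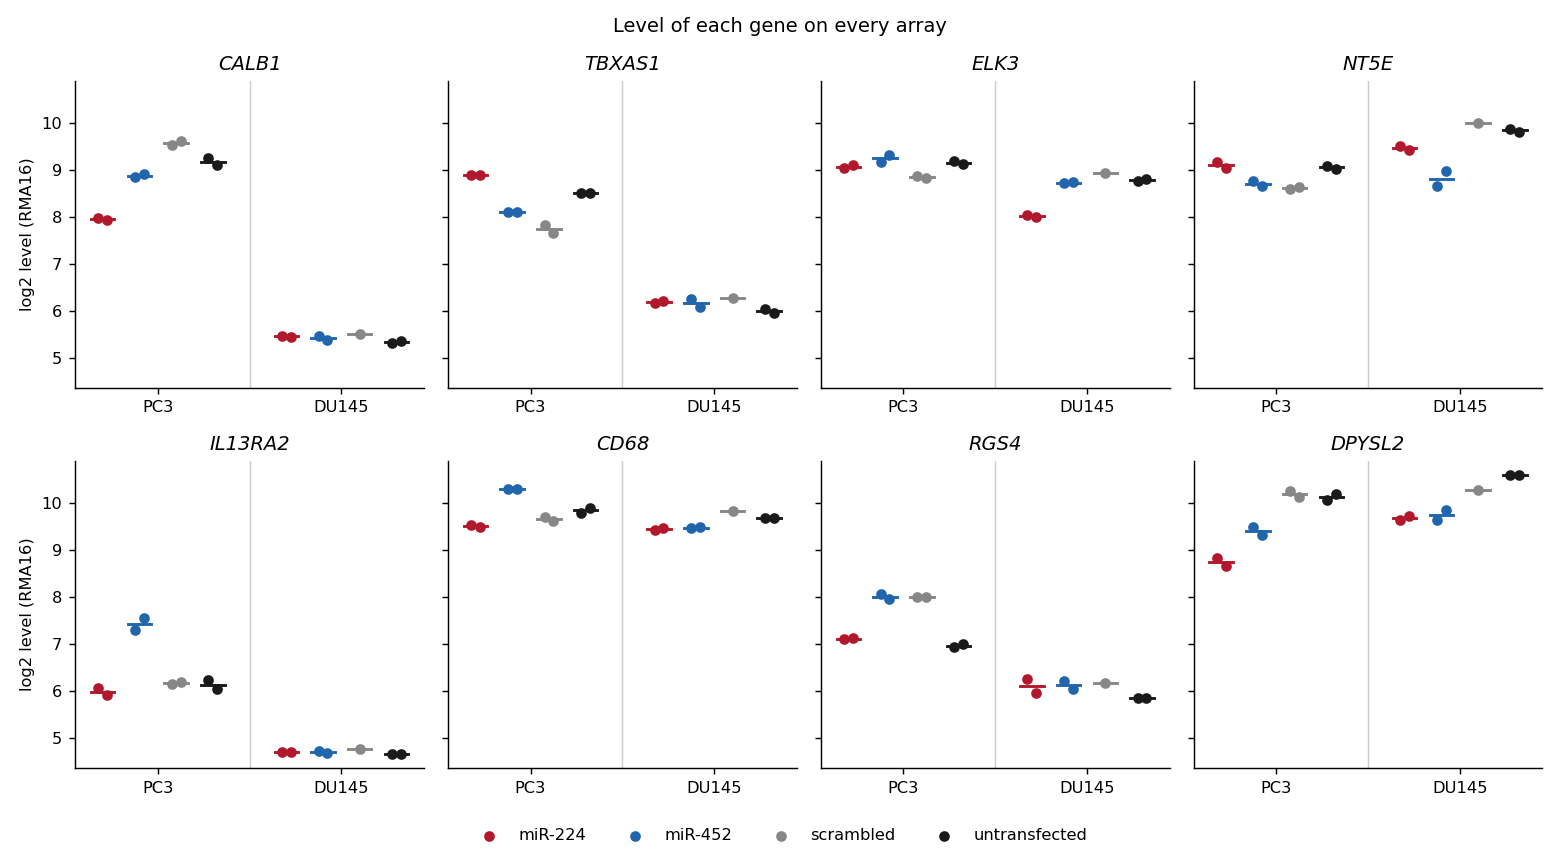
Log2 level (y axis) of each of the 8 genes on every array, with miR-224, miR-452, scrambled and untransfected arrays from left to right, PC3 on the left and DU145 on the right of each panel; points are arrays. The DU145 points of CALB1, TBXAS1, IL13RA2 and RGS4 lie low in every group. Those of RGS4 span 5.85 to 6.27 and those of TBXAS1 5.96 to 6.27, with the untransfected arrays lowest. DPYSL2 is lower with either mimic than with scrambled mimic in both lines.

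RefSeq start sites on GRCh38.p14 were used for 5 of the 8 genes, without CALB1, DPYSL2 and IL13RA2. The windows around the start sites (300 bases, most of them before the start) of TBXAS1, low in DU145, and of NT5E, high in both lines, are printed because they stand far apart in CG content, with each CG step in capitals, on the plus strand.
TBXAS1: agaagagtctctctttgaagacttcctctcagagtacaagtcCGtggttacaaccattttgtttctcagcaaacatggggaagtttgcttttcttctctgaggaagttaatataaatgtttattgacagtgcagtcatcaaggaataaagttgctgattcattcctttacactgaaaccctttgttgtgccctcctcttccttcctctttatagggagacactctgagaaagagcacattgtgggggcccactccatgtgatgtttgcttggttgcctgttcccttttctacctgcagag
NT5E: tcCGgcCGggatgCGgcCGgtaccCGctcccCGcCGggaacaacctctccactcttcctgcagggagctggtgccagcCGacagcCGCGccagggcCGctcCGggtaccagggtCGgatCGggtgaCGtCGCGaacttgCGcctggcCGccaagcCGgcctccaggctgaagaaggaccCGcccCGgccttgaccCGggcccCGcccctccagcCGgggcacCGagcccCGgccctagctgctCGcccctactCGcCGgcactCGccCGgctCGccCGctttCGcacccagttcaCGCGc
The TBXAS1 window, chr7:139829014-139829313, held 1 CG step, and 11.0% of the 35116 windows in the table had as few or fewer. It is the only window given for TBXAS1 and lies inside the gene, whose span starts at chr7:139778242. The NT5E window, chr6:85449833-85450132, held 37, and 90.1% of windows had as many or fewer. The median window had 14. CD68 had 2 in its window, chr17:7579388-7579687, although it was well expressed in both lines, ELK3 had 48 and 9 in its pair of windows, and RGS4 had between 2 and 8 in its 4. On both strands, TATAAA occurred 2 times in the TBXAS1 window, a motif found in 11.5% of all windows, and TGANTCA, the AP-1 motif, occurred 1 time each in the TBXAS1 and CD68 windows, against 7.71% of all windows. TATAAA also occurred 1 time in the third RGS4 window. GGGCGG, found in 45.0% of windows, occurred 2 times in the NT5E window and 5 times in the first ELK3 window. These are letters in a window and no measure of binding, and CG content was not tested against level.

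The contrasts that chose the genes put 5 of the 8 past limma's adjusted p of 0.05 with miR-224 against scrambled mimic in PC3, where 16.8% of all genes were, and 2 in DU145, where 1.94% were. With miR-452 they were 6 in PC3, against 5.22% of all genes, and 1 in DU145, against 2.1% of all genes. The change differed between the lines by the same threshold for 6 genes with miR-224, against 1.15% of all genes, and for 5 with miR-452, against 0.62%. Against untransfected cells the counts were 4 with miR-224 and 7 with miR-452 in PC3 (9.69% and 22.2% of all genes), 3 and 2 in DU145 (21.0% and 28.2%), and 2 and 5 for the difference between lines (5.13% and 2.88%). These counts rest on arrays that chose the genes, and nothing is read from them.

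NT5E, the CD73 ectoenzyme, was higher in PC3 and lower in DU145 with miR-224 than with scrambled mimic. In PC3 it read 9.18 and 9.04 with miR-224, 8.77 and 8.65 with miR-452, 8.60 and 8.63 with scrambled mimic and 9.08 and 9.03 untransfected. The miR-224 arrays lay with the untransfected ones, and all of these above the miR-452 and scrambled arrays. In DU145 it read 9.51 and 9.42 with miR-224, 8.66 and 8.97 with miR-452, 9.99 with scrambled mimic and 9.88 and 9.81 untransfected. Both mimics lay below both kinds of control there, miR-452 lowest, without overlap. Against scrambled mimic the miR-452 change was -1.17 ± 0.14 (log2, SE) in DU145, 2.26-fold lower, and 0.09 ± 0.083 in PC3, the line with the lower level of NT5E. With miR-224 it was 0.49 ± 0.083 in PC3 and -0.52 ± 0.14 in DU145.

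IL13RA2, the high-affinity interleukin 13 receptor, stood out with miR-452 in PC3. There it read 6.07 and 5.91 with miR-224, 7.30 and 7.55 with miR-452, 6.16 and 6.20 with scrambled mimic and 6.24 and 6.04 untransfected. The 2 miR-452 arrays were the high ones, and the other 6 lay together well below them. The DU145 values were 4.71 and 4.70 with miR-224, 4.72 and 4.69 with miR-452, 4.77 with scrambled mimic and 4.67 and 4.67 untransfected, which is the low end of the arrays in every group. The miR-452 change was 1.25 ± 0.10 in PC3, 2.37-fold higher, and -0.07 ± 0.099 in DU145. The authors' normalization is understood to add a constant to the signal, which shrinks changes near the low end. With that constant of 16 taken off, the change was 1.47 in PC3 and -0.18 in DU145.

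CD68, the lysosomal glycoprotein, stood above its controls on the miR-452 arrays of PC3 and below them on the mimic arrays of DU145. In PC3 it read 9.54 and 9.49 with miR-224, 10.29 and 10.29 with miR-452, 9.70 and 9.61 with scrambled mimic and 9.79 and 9.90 untransfected. In DU145 it read 9.42 and 9.47 with miR-224, 9.47 and 9.49 with miR-452, 9.84 with scrambled mimic and 9.68 and 9.68 untransfected. The miR-452 arrays were the highest in PC3, while in DU145 all 4 mimic arrays lay below the 3 control arrays. The miR-452 change was 0.63 ± 0.079 in PC3, 1.55-fold higher, and -0.36 ± 0.10 in DU145, 1.28-fold lower, and the miR-224 change was -0.14 ± 0.079 in PC3 and -0.39 ± 0.10 in DU145. Of 10 leukocyte and macrophage markers 9 were measured, and their mean level lay between 6.19 and 6.21 on the miR-452 arrays of PC3 against 6.13 and 6.16 on the scrambled arrays. In untransfected cells the 9 ranged from percentile 2.41 (PTPRC) to 63.4 (TYROBP) in PC3 and from 5.87 (PTPRC) to 64.6 (TYROBP) in DU145, with CD14 at 24.9 in PC3 and 37.2 in DU145 and CSF1R at 32.9 in PC3 and 23.5 in DU145. How these markers relate to the CD68 value was not tested. Each array averages over the cells of 1 cultured line, so a change in every cell and a larger change in some cells cannot be told apart.

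TBXAS1, the thromboxane synthase, differed among all 4 groups in PC3. It read 8.89 and 8.89 with miR-224, 8.10 and 8.10 with miR-452, 7.83 and 7.67 with scrambled mimic and 8.52 and 8.51 untransfected. The groups did not overlap, and the untransfected arrays lay between miR-224 and miR-452. DU145 arrays gave 6.16 and 6.21 with miR-224, 6.27 and 6.08 with miR-452, 6.27 with scrambled mimic and 6.04 and 5.96 untransfected. The miR-224 change against scrambled mimic was 1.14 ± 0.081 in PC3, 2.20-fold higher, and -0.08 ± 0.11 in DU145. Set against untransfected cells the PC3 change was 0.38 for miR-224 and -0.42 for miR-452, while miR-452 against scrambled mimic gave 0.35, so that the direction of the miR-452 change turns with the control.

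RGS4, the regulator of G protein signalling, stood near its untransfected level on the miR-224 arrays of PC3. In PC3 it read 7.11 and 7.13 with miR-224, 8.06 and 7.96 with miR-452, 8.0 and 8.01 with scrambled mimic and 6.94 and 7.0 untransfected. The miR-452 and scrambled arrays overlapped, and the miR-224 and untransfected arrays lay well below them. The miR-224 change was -0.89 ± 0.076 against scrambled mimic, 1.85-fold lower, but 0.15 against untransfected cells. In DU145 it read 6.27 and 5.96 with miR-224, 6.22 and 6.05 with miR-452, 6.17 with scrambled mimic and 5.85 and 5.86 untransfected, and the 3 transfected groups overlapped. RGS4 probes also sit on 2 features shared with other symbols, which were not used.

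ELK3, the ternary complex factor, was lower on the miR-224 arrays of DU145. It read 8.04 and 7.99 there with miR-224, 8.72 and 8.73 with miR-452, 8.93 with scrambled mimic and 8.77 and 8.81 untransfected. In PC3 it read 9.05 and 9.09 with miR-224, 9.17 and 9.32 with miR-452, 8.87 and 8.83 with scrambled mimic and 9.18 and 9.12 untransfected. The miR-224 arrays of DU145 lay well below all others of that line, whereas in PC3 the scrambled arrays were the low ones. The change was -0.91 ± 0.10 in DU145, 1.88-fold lower, and 0.22 ± 0.081 in PC3. With miR-452 it was 0.39 ± 0.081 in PC3 and -0.20 ± 0.10 in DU145. The percentile of the untransfected gene was close in the lines, 80.2 in PC3 and 83.8 in DU145.

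CALB1, calbindin, was lower with both mimics than with scrambled mimic in PC3, the line where it was well expressed. In PC3 it read 7.98 and 7.92 with miR-224, 8.85 and 8.90 with miR-452, 9.53 and 9.60 with scrambled mimic and 9.24 and 9.10 untransfected. The groups did not overlap, with miR-224 lowest and miR-452 next. The level in DU145 was 5.48 and 5.45 with miR-224, 5.46 and 5.39 with miR-452, 5.50 with scrambled mimic and 5.33 and 5.36 untransfected, with the mimic arrays between the scrambled and the untransfected ones. The miR-224 change was -1.62 ± 0.082 in PC3, 3.07-fold lower, and -0.04 ± 0.10 in DU145, and the miR-452 change was -0.69 ± 0.082 in PC3 and -0.08 ± 0.10 in DU145.

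DPYSL2, the semaphorin mediator CRMP2, went against its description as a gene of a single line. In PC3 it read 8.82 and 8.67 with miR-224, 9.49 and 9.32 with miR-452, 10.25 and 10.14 with scrambled mimic and 10.07 and 10.19 untransfected. In DU145 it read 9.64 and 9.73 with miR-224, 9.63 and 9.85 with miR-452, 10.27 with scrambled mimic and 10.59 and 10.59 untransfected. In each line all 4 mimic arrays lay below all control arrays. The miR-224 change was -1.45 ± 0.094 in PC3, 2.73-fold lower, and -0.59 ± 0.12 in DU145, 1.50-fold lower, and the miR-452 change was -0.79 ± 0.094 in PC3 and -0.53 ± 0.12 in DU145. With miR-224 the larger change was in PC3, the line with the lower untransfected level.

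The scrambled mimic itself was set against untransfected cells to show how far the control moved. This contrast shares the scrambled arrays with those that chose the genes, so its values are a description with no test. In PC3, RGS4 was higher with scrambled mimic by 1.04 ± 0.076, 2.05-fold, and CALB1 by 0.40 ± 0.082. TBXAS1 stood at -0.76 ± 0.081, NT5E at -0.44 ± 0.083 and ELK3 at -0.30 ± 0.081, all lower with scrambled mimic. IL13RA2, CD68 and DPYSL2 stood at 0.04, -0.18 and 0.06. By limma's threshold of adjusted p 0.05 these were 5 genes of the 8, against 14.2% of all genes, and 2 without untransfected replicate b or 3 without scrambled replicate c.

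In DU145 the scrambled array lay 0.27 ± 0.11 above the untransfected mean for TBXAS1, the opposite side from PC3, and 0.32 ± 0.14 above it for RGS4. DPYSL2 stood at -0.32 ± 0.12, and the other 5 genes lay between 0.10 and 0.16. By limma's threshold these were 0 of the 8, against 11.8% of all genes, with 3 at an unadjusted p under 0.05 and 1 by limma with trend and robust moderation. The count was 2, TBXAS1 and DPYSL2, without miR-452 replicate a or c. The difference between the lines was -1.03 ± 0.13 for TBXAS1 and 0.72 ± 0.15 for RGS4, and 1 of the 8 was past the threshold, TBXAS1, against 0.207% of all genes. The single scrambled array of DU145 enters all of these values.

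**Figure D2:**
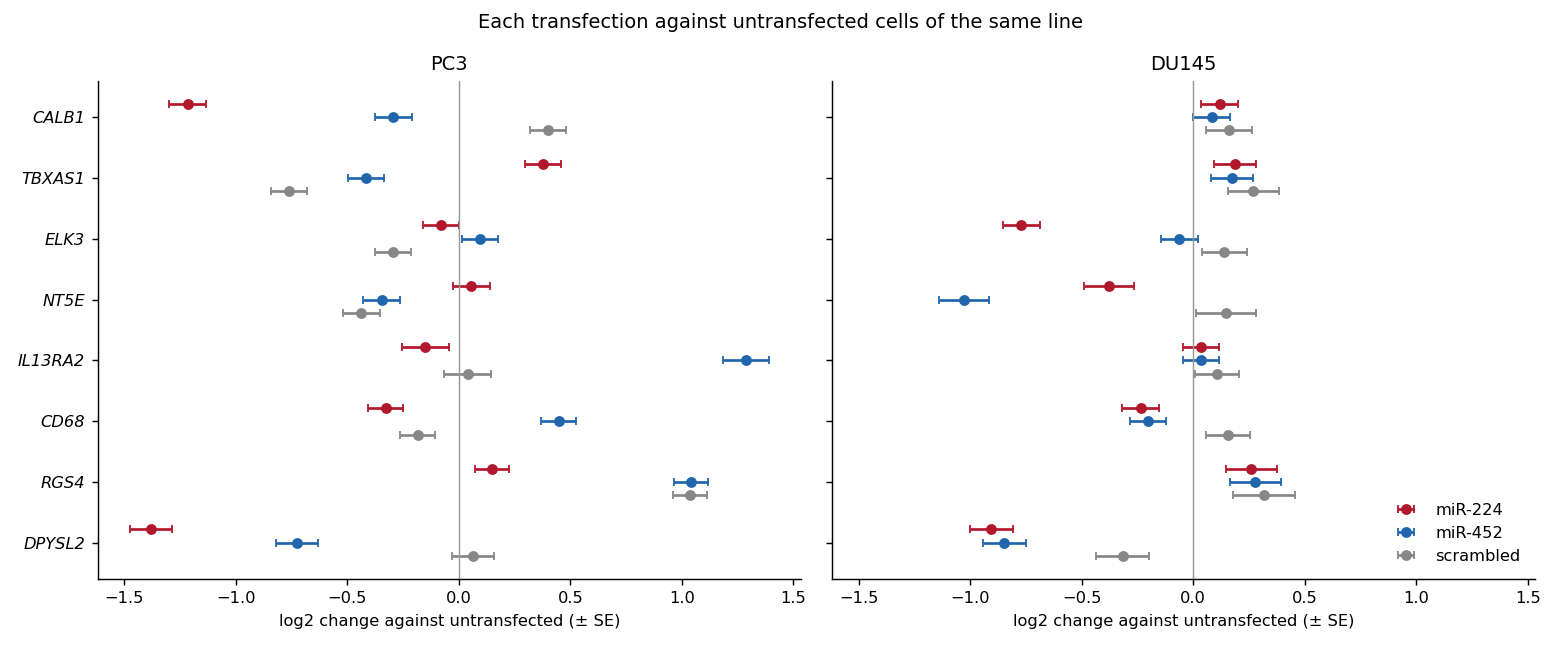
Log2 change against untransfected cells (x axis, ± SE of the limma fit) of the 8 genes for miR-224, miR-452 and scrambled mimic, in PC3 and DU145. In PC3 the scrambled point of RGS4 lies at 1.04 beside that of miR-452, with miR-224 at 0.15, and the 3 points of TBXAS1 lie at 0.38 for miR-224, -0.42 for miR-452 and -0.76 for scrambled mimic.

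Set against untransfected cells, the same mimic arrays gave another order of genes. CALB1 stood at -1.22 with miR-224 and -0.29 with miR-452 in PC3, and DPYSL2 at -1.38 and -0.73, so both kept their direction. IL13RA2 was at 1.29 with miR-452 in PC3, beside 1.25 against scrambled mimic, and CD68 at 0.45 beside 0.63. In DU145, ELK3 was at -0.77 with miR-224, NT5E at -1.03 with miR-452 and DPYSL2 at -0.91 with miR-224 and -0.85 with miR-452. By contrast NT5E in PC3 was at 0.06 with miR-224. The contrasts share their mimic arrays with those that chose the genes, so these are values side by side and no separate evidence.

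The mimics also differed from one another in PC3. In miR-224 minus miR-452, IL13RA2 stood at -1.44, CALB1 at -0.92, RGS4 at -0.89, CD68 at -0.78 and DPYSL2 at -0.66, and TBXAS1 at 0.79 and NT5E at 0.40. ELK3 was at -0.17. In DU145 the sizable values of that contrast were ELK3 at -0.71 and NT5E at 0.65, and the other 6 genes lay between -0.06 and 0.04.

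Untransfected level and size of change went together for some of the genes. With miR-224, the line with the larger change was the line with the higher deposited level for 5 of 8 genes, and for 7 of 8 when the level was read as a percentile. With miR-452 it was 6 of 8 by deposited level and 4 of 8 by percentile. CALB1, TBXAS1, IL13RA2 and RGS4 had untransfected percentiles of at most 28.4 in DU145. Their DU145 changes with either mimic lay between -0.09 and -0.04 against the single scrambled array. Against untransfected cells, with miR-224 and miR-452, they were 0.12 and 0.08 for CALB1 and 0.19 and 0.17 for TBXAS1. For IL13RA2 they were 0.03 and 0.03, and for RGS4 0.26 and 0.28. The 4 genes at percentile 78.7 or more in both lines had changes in either line, in the same direction for DPYSL2 and in opposite directions for NT5E with miR-224, ELK3 with either mimic and CD68 with miR-452. Across the 8 genes the difference in level correlated with the difference in size of change at Pearson r = 0.67 and Spearman rho = 0.60 for miR-224 and at 0.55 and 0.50 for miR-452. These 8 points were picked for unequal change and share their arrays, so the figures describe them only.

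**Figure D3:**
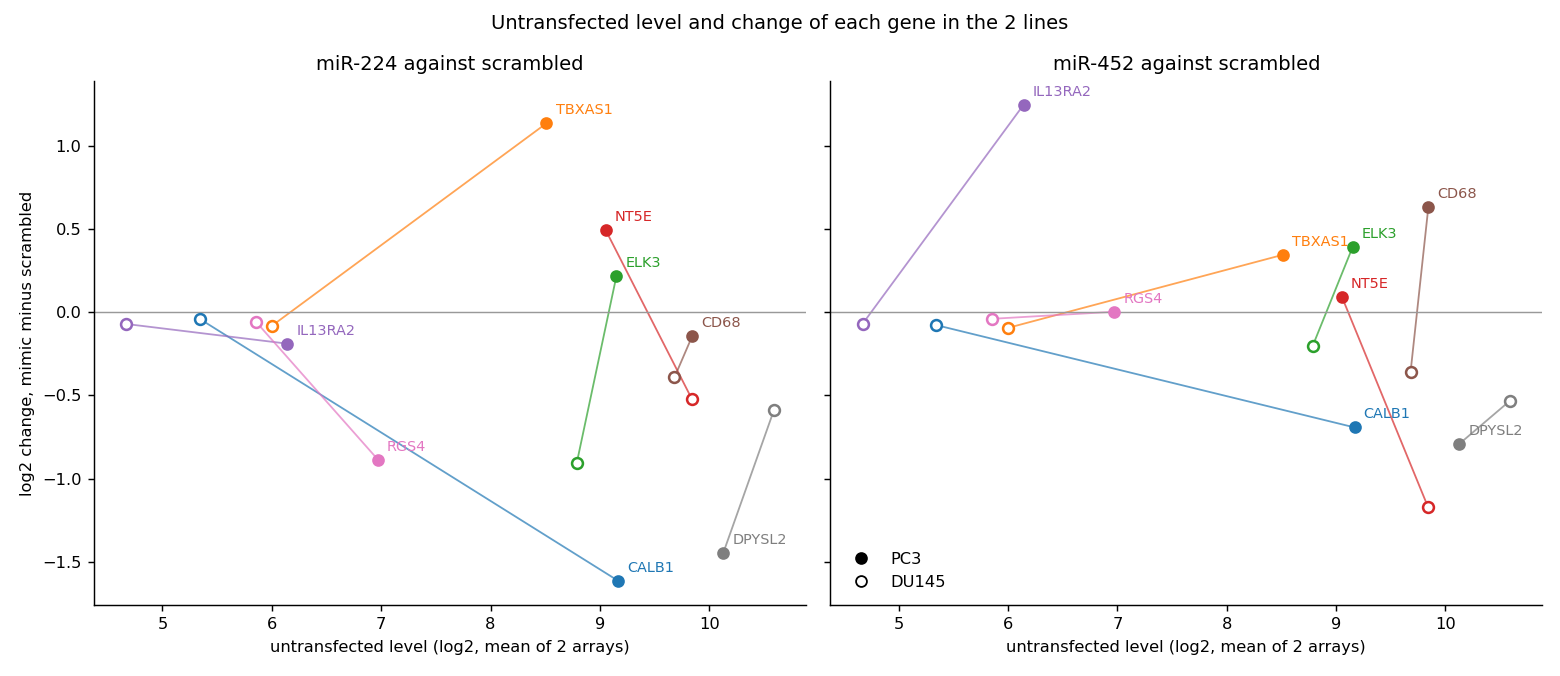
Log2 change, mimic minus scrambled (y axis), against the log2 untransfected level (x axis, mean of 2 arrays) of the 8 genes in PC3 (filled) and DU145 (open), for miR-224 and miR-452; a line joins the points of a gene. The 4 DU145 points of lowest level (6.0 and below) lie near 0 for both mimics, and the DU145 points of 8.79 and above reach -1.17. Every DU145 change shown rests on 1 scrambled array.

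The same relation can be read over all genes whose change differed between the lines. With miR-224 there were 212, and in 168 (79.2%) the larger change was in the line with the higher deposited level. Of the 212, 176 had the higher level and 162 the larger change in PC3, so much agreement follows from these margins and the share is not to be read against an even split. It was 91.1% of the 135 whose larger change was a rise, of which 118 had the higher level and 126 the larger change in PC3. Among the 77 falls it was 58.4%, with 58 and 36 for the same counts. Read as percentiles, by which 140 of the 212 were higher in PC3, it was 74.5% of the 212, 77.0% for rises and 70.1% for falls. With untransfected cells in place of scrambled mimic as the control it was 48.9% of 942 genes by deposited level. With miR-452 it was 66 of 114 (57.9%) by deposited level, 71.4% of the 63 rises and 41.2% of the 51 falls, and 67.5% by percentile, 68.3% for rises and 66.7% for falls. Of these 114, 86 had the higher deposited level and 60 the larger change in PC3.

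Calls also became more frequent with level among all genes, and the 8 genes can be placed on that gradient. In PC3 with miR-224 against scrambled mimic, and all genes cut into 5 equal groups by untransfected level, the share called was 0.68% in the lowest group, 3.86%, 15.3% and 30.1% in the next 3, and 33.8% in the highest. In DU145 it was 0 of 3676 genes in the lowest group and 6.2% in the highest. CALB1 and IL13RA2 lay in the lowest group in DU145 and TBXAS1 and RGS4 in the next, where 0.0544% of genes were called. In PC3 none of the 8 lay in the lowest group, and IL13RA2 and RGS4 lay in the next. With miR-452 the shares in the lowest and highest group were 0.462% and 10.9% in PC3 and 0.0272% and 6.34% in DU145. The median size of change also differed with level, 0.06 in the lowest and 0.20 in the highest group in PC3 with miR-224. The deposited scale is understood to shrink changes near the low end, and its part in this gradient was not tested. The division into 5 groups was chosen after the data were seen.

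**Figure D4:**
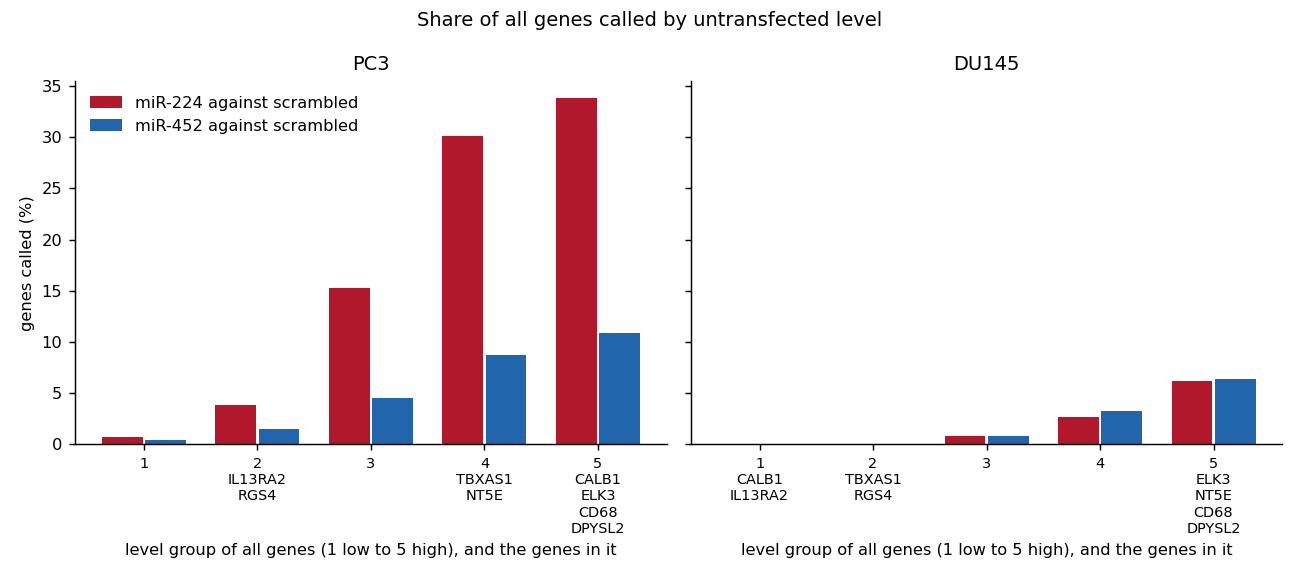
Share of all genes passing limma's adjusted p of 0.05 (y axis, percent) in each of 5 equal groups by untransfected level (x axis, low to high, with the 8 genes named in their group), for miR-224 and miR-452 against scrambled mimic, PC3 left and DU145 right. In both lines the share climbs with level, to 33.8% in PC3 and 6.2% in DU145 for miR-224.

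Genes with the most similar profile were found by Pearson's r over the 15 arrays, each centred on the untransfected mean of its line. They were SPTSSB (0.90) and CLDN11 (0.90) for CALB1, ARHGAP31 and FAR2 (both 0.95) for TBXAS1, and ZNF280B (0.91) and IFT46 (0.90) for ELK3. NT5E was closest to GSTT1 (0.93) and APEH (0.92), IL13RA2 to OAS1 and OR51M1 (both 0.96), and CD68 to PSMB9 (0.93) and AK1 (0.92). RGS4 was closest to AKR1C3 (0.97) and CLDN24 (0.96), and DPYSL2 to FADS1 (0.95) and LBR (0.94). The 2 highest of all genes were taken for each, on arrays that also chose the 8, so high r follows from the search. Size of change does not enter r. With miR-452 in PC3 against untransfected cells, OR51M1 stood at 0.35, beside 1.69 for OAS1 and 1.29 for IL13RA2. Among the 8 genes, IL13RA2 and CD68 were alike (0.84), as were CALB1 and DPYSL2 (0.70), and TBXAS1 and RGS4 ran opposite (-0.80).

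Relatives of the 8 genes, listed by pathway, were tested in the same fits, and 88 of the 97 listed were measured. With miR-224 in PC3, 10 rose and 8 fell, which is 20.5% against 16.8% of all genes, and with miR-452 5 rose and 3 fell, 9.09% against 5.22%. In DU145 0 rose and 3 fell with miR-224, 3.41% against 1.94% of all genes, where 3 higher and 15 lower reached an unadjusted p under 0.05 and limma with trend and robust moderation called 6 in all. With miR-452 in DU145, 1 rose and 1 fell, 2.27% against 2.1% of all genes. Leaving out miR-224 replicate a or c brought the DU145 count with miR-224 to 0, leaving out miR-452 replicate a or c brought it to 7, and the PC3 count with miR-452 was 1 without miR-452 replicate b.

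The control mattered for the relatives as well. Against untransfected cells, SLC29A1 with miR-224 in PC3, ID1, ID3 and SEMA3C with miR-224 in both lines, HPGD, ENTPD3, LAMP3, SCARB2 and RGS17 with miR-224 in PC3, IL4R, LAMP3, NRP1 and RGS2 with miR-452 in PC3, and EGR1 and RGS2 with miR-452 in DU145 also passed. Some relatives passed in DU145 against untransfected cells only, among them HPCAL1 and NRP1 with miR-452. Among the changes named below, those that did not pass against untransfected cells carry that value beside them.

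Around NT5E, of 12 genes of extracellular nucleotide and adenosine handling, 2 rose and 2 fell with miR-224 in PC3. ENTPD3, which makes AMP from ATP and ADP outside the cell, rose by 0.71 ± 0.074 (limma adjusted p = 0.000181), and the nucleoside transporter SLC29A1 fell by 0.43 ± 0.075 (adjusted p = 0.00257). With miR-452, ENTPD3 rose by 0.31 ± 0.074 (limma adjusted p = 0.0312), but stood at 0.10 against untransfected cells. The adenosine receptor ADORA2B fell by 0.45 ± 0.097 (adjusted p = 0.0202), and stood at -0.29 against untransfected cells. Of 11 genes of interleukin 13 and 4 receptor signalling, IL4R alone passed in PC3, and it rose with miR-224 (0.67 ± 0.11, adjusted p = 0.00226) as with miR-452 (0.63 ± 0.11, adjusted p = 0.00681), unlike IL13RA2 itself, which stood at -0.19 with miR-224. Against untransfected cells IL4R stood at 0.38 with miR-224. Among 10 lysosomal relatives of CD68, 4 rose with miR-224 in PC3, where 16.8% of all genes passed in either direction, led by LAMP3 (0.57 ± 0.086, adjusted p = 0.00122) and SCARB2 (0.36 ± 0.085, adjusted p = 0.0133). LAMP3 alone rose with miR-452, by 0.76 ± 0.086 (adjusted p = 0.00041), and CD68 was also high there.

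Of the 13 prostanoid genes around TBXAS1, HPGD, which degrades prostaglandins, rose with miR-224 in PC3 by 0.87 ± 0.093 (limma adjusted p = 0.000223), and PTGES, a prostaglandin E synthase, fell by 0.28 ± 0.080 (adjusted p = 0.0332), with -0.28 against untransfected cells as well (adjusted p = 0.0515). HPGD had an untransfected level of 10.28 in PC3 and 5.17 in DU145, where its change was -0.02, and TBXAS1 was likewise low in DU145. At 5.17 HPGD lay in the lowest DU145 group by level, where 0 of 3676 genes were called with miR-224. With miR-224 against untransfected cells the lines differed by 0.67 for HPGD and by 0.19 for TBXAS1. Of 14 regulators of G protein signalling, RGS17 rose with miR-224 in PC3 (0.43 ± 0.073, adjusted p = 0.00239), and RGS2 rose with miR-452 in PC3 (0.38 ± 0.079, adjusted p = 0.0178) and in DU145 (0.60 ± 0.11, adjusted p = 0.0316). RGS17 also rose with miR-452 in PC3 (adjusted p = 0.0454), but stood at 0.13 against untransfected cells. RGS4 itself stood at 0.00 in PC3 and -0.04 in DU145 with miR-452.

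Among the 9 measured ternary complex, SRF and target genes around ELK3, ID1, a helix-loop-helix inhibitor, fell with miR-224 in PC3 by 1.31 ± 0.078 (limma adjusted p = 1.32e-05) and in DU145 by 0.58 ± 0.11 (adjusted p = 0.0329). ID3 fell by 0.88 ± 0.095 in PC3 (adjusted p = 0.000223) and by 0.74 ± 0.11 in DU145 (adjusted p = 0.015). EGR1, an immediate early transcription factor, fell with miR-452 in DU145 by 0.68 ± 0.11 (adjusted p = 0.0182) and stood at 0.00 in PC3. Of the 6 measured EF-hand relatives of CALB1, HPCAL1 fell in PC3 with miR-224 (-0.47 ± 0.075, adjusted p = 0.00183) and with miR-452 (-0.35 ± 0.075, adjusted p = 0.0192). Scrambled mimic itself raised HPCAL1 by 0.29 in PC3 (adjusted p = 0.0299). Against untransfected cells HPCAL1 stood in PC3 at -0.18 with miR-224 (adjusted p = 0.170) and -0.07 with miR-452 (adjusted p = 0.537). In DU145 it stood at -0.27 with miR-224 and -0.43 with miR-452 against scrambled mimic. Against untransfected cells the DU145 values were -0.14 and -0.30, so the fall of HPCAL1 was not particular to PC3. In the 13 semaphorin genes around DPYSL2, the ligand SEMA3C fell with miR-224 in PC3 by 0.63 ± 0.099 (adjusted p = 0.00165) and in DU145 by 0.67 ± 0.13 (adjusted p = 0.0396), in both lines as DPYSL2 was lower. SEMA3A fell in PC3 by 0.56 ± 0.081 (adjusted p = 0.000961), but stood at -0.22 against untransfected cells (adjusted p = 0.124). The receptor NRP1 fell in PC3 with miR-452 by 0.38 ± 0.081 (adjusted p = 0.0185). In DU145 NRP1 stood at -0.37 with miR-452, a difference between the lines of -0.01. Against untransfected cells NRP1 stood at -0.35 in PC3 and -0.75 in DU145 with miR-452.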

How the data were processed

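The data are 15 arrays (Affymetrix Human Gene 1.0 ST) of total RNA from PC3 and DU145 cells. The authors deposited log2 levels made by RMA16 normalization in GeneSpring GX 11.0, with each line normalized separately and 1 DU145 scrambled array left out, per the series design text. RMA16 is taken to mean that 16 was added to each linear signal, a step that, like the genome build, is not given in the sources used here. Of 28869 features, 19310 carried 1 symbol, 1752 several and 7807 none. Features of 1 symbol were averaged, which gave 18377 genes. Each of the 8 genes came from 1 feature.

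Group means were fitted with limma 3.58.1 (lmFit and eBayes, R 4.3.3), per line, and over all 15 arrays for differences between lines, with Benjamini-Hochberg adjustment over all genes. Residual degrees of freedom were 4 in PC3, 3 in DU145 and 7 over both. The lone DU145 scrambled array was taken to vary like the other groups. On simulated data with this many arrays, limma recovered 97% of changes of 1 log2 in PC3 and 68% in DU145 in scrambled mimic against untransfected. Of changes of 0.5 log2 it recovered 61% in PC3 and 8% in DU145. Only 100 of 18377 genes were changed by each size, whereas 14.2% (PC3) and 11.8% (DU145) were called in the data. The adjustment is stricter when few genes change, so these shares do not give the recovery in the data.

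Scrambled mimic against untransfected was planned as a test for the 8 genes and is given with no p, since its scrambled arrays helped to choose them. The genes and lists were chosen with earlier results of these data known. Named besides the 8 genes are the 2 most correlated genes of each and, per list, line and mimic, up to 2 with the largest change among those past the threshold. Alternatives were another control, 1 fit for all arrays, quantile normalization, subtraction of 16, a level filter at percentile 20, unaveraged features, trend and robust moderation, replicate letters as a block and leaving out each array.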

Additional observations from a re-analysis of the deposited data

Results flagged for a closer look

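Responses that differed between the lines are given here as PC3 minus DU145 on the log2 scale, over all 15 arrays. TBXAS1 differed in scrambled mimic against untransfected cells by -1.03 ± 0.13, with -0.76 in PC3 and 0.27 in DU145. No p is given for it, because the gene was chosen on contrasts that hold the same scrambled arrays, a single one of them in DU145.

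Among the 88 measured relatives, which did not choose the set, 5 passed limma's test of the difference. With miR-224, 1 was higher and 2 were lower, 3.41% against 1.15% of all genes. With miR-452, 2 were higher and 0 lower, 2.27% against 0.62% of all genes. For scrambled mimic against untransfected cells it was 0 of 88, against 0.207% of all genes. HPGD differed with miR-224 against scrambled mimic by 0.89 ± 0.14 (adjusted p = 0.00652), and by 0.67 against untransfected cells (adjusted p = 0.00885). Its untransfected level in DU145 was 5.17, near the low end, where the deposited scale is understood to shrink changes. ID1 differed with miR-224 by -0.73 ± 0.13 (adjusted p = 0.0152), and by -0.44 against untransfected cells (adjusted p = 0.0389). SEMA3A differed by -0.71 ± 0.12 (adjusted p = 0.0167), but by -0.09 against untransfected cells (adjusted p = 0.665), where scrambled mimic itself stood at 0.35 in PC3 and -0.27 in DU145. LAMP3 differed with miR-452 by 0.83 ± 0.14 (adjusted p = 0.0177), and by 0.64 against untransfected cells (adjusted p = 0.0115). EGR1 differed with miR-452 by 0.68 ± 0.13 (adjusted p = 0.0287), and by 1.25 against untransfected cells (adjusted p = 5.69e-05).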

How the results depend on the processing

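Limits come first from size: 2 arrays a group, 1 for DU145 scrambled mimic, which cannot be left out, so every DU145 change against scrambled mimic rests on it. Counts below are of the 8 genes or of the 88 measured relatives past adjusted p 0.05. Leaving out 1 array at a time, the genes called ranged from 2 to 5 for scrambled mimic against untransfected in PC3 and from 0 to 2 in DU145, from 5 to 5 (PC3) and 1 to 4 (DU145) for miR-224, and from 4 to 6 (PC3) and 1 to 2 (DU145) for miR-452. Different changes between lines ranged from 4 to 6 for miR-224 and from 3 to 5 for miR-452. Relatives ranged from 13 to 18 (PC3) and 0 to 7 (DU145) for miR-224 and from 1 to 7 (PC3) and 1 to 8 (DU145) for miR-452. The counts moved by over 1.5 times without untransfected b (2) or scrambled c (3) for scrambled mimic in PC3; in DU145 without either untransfected or miR-224 array (1 gene with miR-224) or either miR-452 array (4 with miR-224, 2 with scrambled mimic) and without miR-452 c (2 with miR-452); and to 3 for miR-452 differences between lines without any of 11 arrays. Relatives in PC3 with miR-452 came to 3 without scrambled b, 1 without miR-452 b and 2 without miR-452 c. In DU145 they came to 1 without either untransfected array for each mimic; without either miR-224 array to 0 with miR-224 and 1 with miR-452; and without miR-452 a and c to 7 and 7 with miR-224 and to 4 and 8 with miR-452. With untransfected arrays as the control, different changes with miR-224 came to 2, DU145 genes with miR-452 to 2, and relatives to 19 (DU145 miR-224), 15 (PC3 miR-452) and 17 (DU145 miR-452), and 2 changes reversed: TBXAS1 with miR-452 in PC3 to -0.42 and RGS4 with miR-224 in PC3 to 0.15. In DU145, 1 fit of all arrays called 4 genes with miR-224 and 3 with miR-452, and 6 relatives with each. Trend and robust moderation called 4 and 3 genes, 1 with scrambled mimic against untransfected, and 6 relatives with each mimic. The level filter called 2 genes with miR-452 and 5 and 4 relatives. Quantile normalization within the line called 2 genes with miR-452 and 6 relatives with miR-224. With all 15 arrays normalized together, relatives came to 13 (PC3 miR-452) and 6 (DU145 miR-224), and the untransfected differences of ELK3 and CD68 reversed to -0.25 and -0.42. Same-letter arrays correlated between -0.31 and 0.273 after removal of group means. With 2 arrays a group each such value has a mirror image of opposite sign, so the check cannot settle whether letters pair the arrays. With the replicate block, 0 genes were called in DU145 with either mimic and 0 differed between lines, and relatives came to 11 (PC3 miR-224) and 0 (DU145, each mimic). With DU145 miR-452 letters crossed, chosen after seeing the data, 1 gene was called in DU145 with miR-224 and 0 differed between lines. The share of genes whose larger change lay in the line of higher level was, for miR-224, 48.9% against untransfected cells, 70.2% after joint normalization, 91.9% at adjusted p 0.01 and 89.3% among differences of at least 1 log2, and for miR-452 67.5%, 69.3%, 84.2% and 81.2% in that order of settings. The causes were not tested.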
